A study of Homo sapiens with 4 samples.

Results

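The annexin family was read here as 10 genes (ANXA1 to ANXA7, ANXA10, ANXA11 and ANXA13) of 19775 genes on the arrays. Members were probe sets that the platform annotation assigns to 1 gene, that gene being a listed annexin, which gave 19 of 54613 probe sets; 1 further probe set whose annotation names several genes, ANXA2 among them, was not used. The family was selected on values of the LSD1 knockdown against control comparison, which had been seen beforehand, so the members' differences in that comparison are given as a description. Calls among members in the fit of all genes are counted only to set them beside the share of all genes called, and support nothing. The cells were HepG2, an established human hepatoma line, kept in high-glucose medium (25 mM) containing 10% serum. They received small interfering RNA (siRNA) when about 50% confluent and were collected 4 days later. For the control group (2 arrays) the siRNA was directed at GL3. For the knockdown group (2 arrays) it was directed at LSD1, the histone demethylase that KDM1A encodes, with siRNA-1 on one array and siRNA-2 on the other. The study asked about the role of LSD1 in the metabolism of liver cancer cells.

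Annexins are proteins that bind acidic phospholipids of membranes when calcium rises. A conserved core of repeats holds the calcium sites, and an N-terminal stretch that differs between members binds partners, among them the small S100 proteins. The family is known for roles in membrane repair and traffic, in plasmin generation at the cell surface and, for annexin A1, in dampening inflammation. In the liver, annexin A1 is known to be low in normal hepatocytes and to be made by some hepatoma cells.

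The arrays were Affymetrix HG-U133 Plus 2.0 GeneChips, where a set of short probes reads each transcript. Values are log2 units after RMA, the authors' background correction, normalization and probe summary, and were centred so that the median of the 4 arrays was 0 in each probe set. Differences between arrays remain, whereas levels do not, so no gene's level was set against that of another. A level class for the dimmest of the 4 arrays was taken from the rounding step that single-precision storage leaves in the values: 8 or above, 4 to 8, or below 4 on the log2 scale, where a probe set below 4 is called dim here. Of the 19 annexin probe sets, 13 lay at 8 or above, 3 from 4 to 8 and 3 below 4. Of all probe sets, 26.3%, 37.2% and 36.4% lay in these classes. In a simulation, 14.4% of probe sets below 8 were put in a brighter class. KDM1A, the target, read 1.23 and 1.17 in the controls against -1.55 for siRNA-1 and -1.17 for siRNA-2, so both knockdown arrays lay far below (-2.56 ± 0.16, SE), although over all genes the limma adjusted p was 0.0853. On the same split of arrays, 18 hybridization spike-in probe sets were higher by a mean of 1.28 with LSD1 siRNA (range 0.80 to 1.53), and the 5' minus 3' value of ACTB, a measure of RNA integrity, was lower by a difference of -0.61, while that of GAPDH differed by -0.18; their part in the annexin values was not tested. Whether a group's arrays stem from separate cultures is not stated in the labels. Errors and p-values thus cover spread between arrays alone, which may be technical, and the number of arrays limits the precision. The knockdown arrays carry different siRNAs, so their spread in the fit of 2 groups also holds any difference between the siRNAs. Each SE is moderated by limma, which draws a gene's own spread toward that of all genes (prior SD 0.133 with 2 groups, 0.067 with 3 groups). In a culture measured in bulk, fewer expressing cells and less RNA per cell cannot be told apart.

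The start regions of 3 annexin genes, chosen with the differences known, are shown for their composition. Those of ANXA1 and ANXA10 differ in composition from those of most of the family. Whether composition has any link to the differences between arrays was not tested. Each runs 5' to 3' on the gene's strand from 250 bases before to 50 bases after the RefSeq start (GRCh38.p14). They lie at chr9:73151615-73151914 (plus strand, ANXA1), chr4:168092287-168092586 (plus strand, ANXA10) and chr15:60397937-60398236 (minus strand, ANXA2). Capitals mark matches to TATAAA (the TATA box), GGGCGG (the GC box) and TGANTCA (the AP-1 site) on either strand.
ANXA1: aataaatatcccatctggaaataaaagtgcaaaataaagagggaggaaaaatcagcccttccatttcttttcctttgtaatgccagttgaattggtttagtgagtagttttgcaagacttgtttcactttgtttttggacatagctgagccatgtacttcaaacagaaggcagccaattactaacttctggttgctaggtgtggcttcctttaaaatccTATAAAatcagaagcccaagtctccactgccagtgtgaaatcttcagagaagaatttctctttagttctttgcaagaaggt
ANXA10: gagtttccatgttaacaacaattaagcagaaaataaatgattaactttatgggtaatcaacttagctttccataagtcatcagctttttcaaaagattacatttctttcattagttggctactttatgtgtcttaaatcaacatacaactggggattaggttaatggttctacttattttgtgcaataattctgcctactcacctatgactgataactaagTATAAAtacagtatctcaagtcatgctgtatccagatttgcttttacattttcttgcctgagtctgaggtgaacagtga
ANXA2: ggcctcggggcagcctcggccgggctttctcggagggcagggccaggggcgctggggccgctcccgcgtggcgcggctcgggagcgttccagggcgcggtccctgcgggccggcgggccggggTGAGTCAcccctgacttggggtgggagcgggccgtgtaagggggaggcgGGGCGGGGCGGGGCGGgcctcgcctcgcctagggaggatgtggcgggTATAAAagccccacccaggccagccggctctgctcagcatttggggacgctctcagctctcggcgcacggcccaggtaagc
The ANXA1 and ANXA10 windows held 37.7% and 32.7% G or C and 0 CG dinucleotides each, against medians of 58.7% and 14 over 35114 windows of the same length. The ANXA2 window held 76.0% G or C and 32 CG dinucleotides. TATAAA was found at -31 in ANXA1, at -29 in ANXA10 and at -31 in ANXA2, counted from the start, and in 11.5% of all windows. An ANXA11 window not printed here, with 51.7% G or C, also held TATAAA, at -61. In ANXA2, 3 overlapping GC boxes and 1 AP-1 match were also found (45.0% and 7.7% of all windows). The search also covered GCGNGGGCG, the site of EGR factors, and CAGGTG, the E-box that SNAI repressors bind, which are in 9.4% and 20.6% of windows; neither was in these 3 windows. In all, 9 of the 10 annexins had at least 1 window, 13 in total, and the other 11 windows held 51.7% to 78.0% G or C. A match is a string of letters and not a shown binding site.

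ANXA1 was the only annexin with a difference of 2-fold or more, and it was lower on both LSD1 siRNA arrays. Annexin A1 inhibits cytosolic phospholipase A2 and, once secreted, signals through formyl peptide receptors. Its bright probe set read 0.59 and 0.88 in the controls, then -0.59 for siRNA-1 and -2.30 for siRNA-2. Both LSD1 siRNA arrays lay below both controls, and the siRNA-2 array lay far below the siRNA-1 array. The difference of means was -2.18 ± 0.60 (SE, n = 2 arrays in each group), or 4.55-fold lower. The siRNA-2 array minus the siRNA-1 array was -1.71, against a range of 0.28 between the controls, and that gap enters this SE. Against the control mean ANXA1 was 2.51-fold lower with siRNA-1 (-1.33) and 8.22-fold lower with siRNA-2 (-3.04). Among all 19775 genes it had the 7th lowest difference of means. Taken by siRNA, it stood 32nd from the lowest with siRNA-1 and 4th with siRNA-2. Genes at least 2-fold lower with each siRNA, as ANXA1 was, made up 0.233% of all genes (46 genes).

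The second ANXA1 probe set, a dim one, read 0.03 and 0.03 on the controls, -0.03 with siRNA-1 and -0.36 with siRNA-2. It had the same order of arrays with a much smaller difference (-0.22 ± 0.15, SE of the fit over all probe sets). The mean of both probe sets gave -1.20 for ANXA1, so the size of the ANXA1 difference rests on the bright one.

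**Figure D1:**
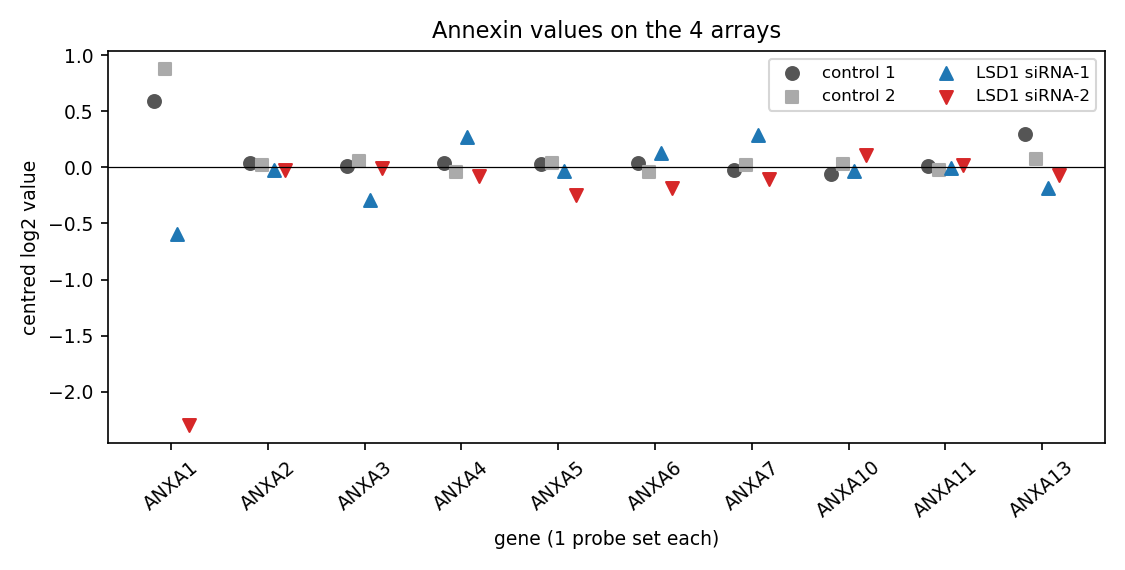
Centred log2 value (vertical axis) of the 10 annexin genes, 1 probe set each, for control 1 (circle), control 2 (square), LSD1 siRNA-1 (upward triangle) and LSD1 siRNA-2 (downward triangle). ANXA1 spans 0.88 to -2.30, whereas the values of the other 9 genes stay between 0.30 and -0.29.

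ANXA1 also read lower with siRNA-2 than with siRNA-1, by a difference of -1.71 on 1 array each. In a limma model with 3 groups, a gene's own spread came from the 2 control arrays and was drawn toward that of all genes (prior SD 0.067). A lone LSD1 siRNA array was assumed to vary like the controls. There the ANXA1 difference had an SE of 0.18 and was called in the test over all genes. The arrays are those on which the family was chosen and neither siRNA was replicated. The call thus compares these arrays and is no independent support. That test called 6.83% of all genes (2.85% lower), and 1 of 10 annexins. The call ended when probe sets ending in _x_at or _s_at were left out (adjusted p = 0.0523), with all probe sets fitted (0.0722), both at an unmoved difference of -1.71, and with arrays quantile-normalized again (0.453), in a range from 0.0274 to 0.453. Quantile normalization, run here on the centred values, makes the spread of all arrays equal and brought the difference to -0.61. It narrows the widest array by construction, so the smaller difference decides nothing about the siRNAs. The mean of both ANXA1 probe sets gave -1.02. The siRNA-2 array also had the widest spread over probe sets (SD 0.384, against 0.154 to 0.197 on the other arrays). KDM1A itself differed by 0.38 between the siRNAs, being lower with siRNA-1, on 1 array each. How the KDM1A value relates to that of ANXA1 was not tested.

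The other 9 annexins had differences of means between -0.31 and 0.10. The median absolute difference of the 10 genes was 0.10, against 0.16 over all genes, and their control arrays differed by a median of 0.07, against 0.08. In the fit of all 4 arrays 0 of 10 members had a limma adjusted p under 0.05, where 0.00506% of all genes did, and 1 of 10 (ANXA1) had an unadjusted p under 0.05, as 2882 genes did. With siRNA-2 alone 1 of 10 (ANXA1, lower) was under that threshold, against 23.3% of all genes in either direction and 10.1% lower; with siRNA-1 alone 0 of 10 were, as were 0 of all genes. Calls for siRNA-2 alone, here and in the lists that follow, rest on 1 array and fell to 0 of all genes when the arrays were quantile-normalized again. Both LSD1 siRNA arrays lay below both controls for 5 of 10 members and above them for 0, and 5 overlapped, against 25.4%, 23.6% and 51% of all genes. Since the family was chosen with these values known, nothing is read from any of these counts. The plot of all genes shows 9 annexins in the middle of the distribution and ANXA1 near its lower end.

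**Figure D2:**
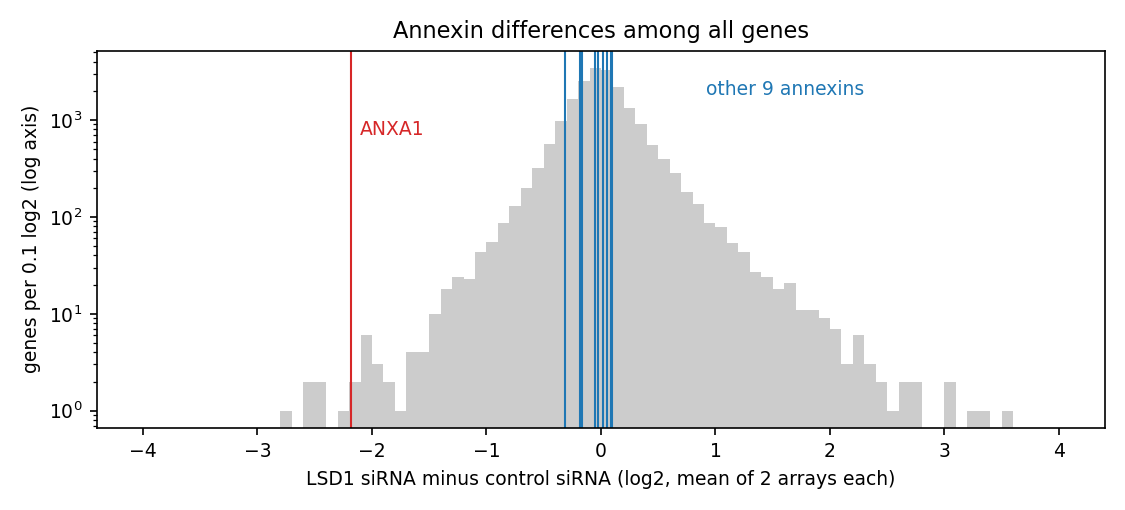
Number of genes (log axis) by difference of means, LSD1 siRNA minus control siRNA, in log2 units, for all 19775 genes in grey. The red line marks ANXA1 at -2.18, and the blue lines mark the other 9 annexins, which lie between -0.31 and 0.10.

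ANXA2, which forms a complex with S100A10 that binds plasminogen activators and plasminogen at the cell surface, read 0.04 and 0.02 on the controls and -0.02 with each LSD1 siRNA. The groups did not overlap, but the difference was small (-0.05 ± 0.10). That SE comes largely from the spread of all genes, since the ANXA2 arrays of a group lay within 0.02 of each other. The other bright ANXA2 probe sets gave -0.09 and -0.10 and one of class 4 to 8 gave -0.27, where control 1 alone stood high at 0.51. The 3 bright ones end in _x_at, which marks probes that can also read near-identical transcripts, and ANXA2 has processed pseudogenes of very similar sequence, so their signals cannot be told apart here. Probe sets annotated to these pseudogenes read differences of 0.23 ± 0.19 (ANXA2P1), 0.08 ± 0.10 (ANXA2P2, again an _x_at probe set) and 0.16 ± 0.10 (ANXA2P3). The groups overlapped for ANXA2P1. These signs are opposite to that of ANXA2, but with SEs of this size nothing is read from the signs.

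ANXA5, the annexin used as a stain for phosphatidylserine on dying cells, read 0.03 and 0.04 on the controls, -0.03 with siRNA-1 and -0.25 with siRNA-2. Only the siRNA-2 array stood apart by more than a small step, and the difference was -0.17 ± 0.12. ANXA3, at 0.01 and 0.06 on the controls, had the opposite order, with -0.29 on the siRNA-1 array and -0.01 on the siRNA-2 array (difference -0.18 ± 0.14). ANXA3 and ANXA5 are each read by 1 bright probe set.

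ANXA4 and ANXA7, by the probe set used for each, read higher than the controls with siRNA-1 and slightly lower with siRNA-2. ANXA6, given below, had the same signs. ANXA4, found at membranes of secretory epithelia, read 0.04 and -0.04 on the controls, 0.27 with siRNA-1 and -0.08 with siRNA-2. Its second bright probe set went lower with each siRNA (-0.10 and -0.39), so the ANXA4 probe sets disagreed on siRNA-1. ANXA7, or synexin, known for promoting membrane fusion in secretion, read -0.02 and 0.02, then 0.29 with siRNA-1 and -0.10 with siRNA-2. Its second probe set also had its highest value with siRNA-1 (0.16). With siRNA-2 it read 0.01, above its controls at -0.03 and -0.01, so the ANXA7 probe sets disagreed on siRNA-2. The difference between the siRNAs was -0.40 ± 0.08 for ANXA7 and -0.34 ± 0.09 for ANXA4, and neither passed the test over all genes (limma adjusted p = 0.0834 and 0.12).

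ANXA6, an annexin with a duplicated core that binds late endosomes and cholesterol-rich membranes, read 0.04 and -0.04 on the controls, 0.13 for siRNA-1 and -0.18 for siRNA-2. The arrays of the groups overlapped and the difference was -0.03 ± 0.15. A dim second ANXA6 probe set read lower with each siRNA (-0.23 and -0.34), beside a range of 0.30 between the controls.

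ANXA11, which tethers RNA granules to lysosomes, had the smallest difference of the family, 0.02 ± 0.10, with values from -0.02 to 0.02 on the 4 arrays. Its other probe sets gave -0.04 and 0.14, and the 3 together lay on both sides of 0. ANXA10, a stomach-enriched annexin with degenerate calcium sites, read -0.06 and 0.03 on the controls, -0.03 with siRNA-1 and 0.11 for siRNA-2 (0.05 ± 0.11). The start region of ANXA10 printed above is AT-rich with a TATA box, as that of ANXA1 is, and its part in the values was not tested. ANXA13, known from intestinal and kidney epithelium, was read by 1 dim probe set, at 0.30 and 0.07 on the controls, -0.18 with siRNA-1 and -0.07 with siRNA-2. Its difference, -0.31 ± 0.13, was the next lowest after ANXA1, but the controls alone differed by 0.23.

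Signs for the siRNAs were opposite for 4 of 10 annexins, against 35.5% of all genes. Of the 19 probe sets, 11 had both LSD1 siRNA arrays below both controls, 2 above and 6 overlapping, against 25.3% below and 21.6% above over all probe sets, and again nothing is read from a count on the contrast by which the family was chosen. Probe sets of 1 gene share the arrays and are not replicates. Of the 11 lower ones, the bright ANXA1 probe set was the only one beyond 0.31 from 0.

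**Figure D3:**
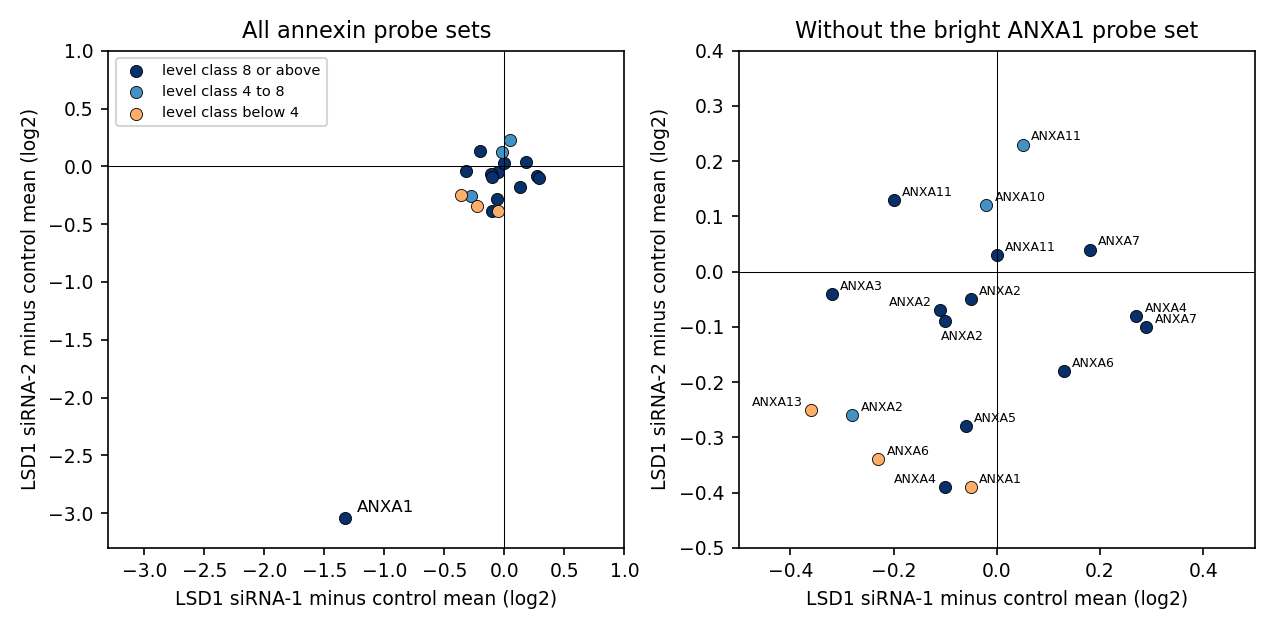
Difference from the control mean, in log2 units, with LSD1 siRNA-1 (horizontal axis) and siRNA-2 (vertical axis) for the 19 annexin probe sets. Colour marks the level class. The right panel repeats the left over a narrower range of values, without the bright ANXA1 probe set. That probe set lies at -1.33 and -3.04, and all others lie within 0.36 of the control mean with siRNA-1 and within 0.39 with siRNA-2.

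Annexins outside the member list were read for comparison. ANXA9, an epithelial annexin with degenerate calcium sites, went the other way from ANXA1. It read -0.29 and -0.31 on the controls, 0.29 with siRNA-1 and 0.49 with siRNA-2, a difference of 0.69 ± 0.12 that did not pass over all genes (limma adjusted p = 0.199); with siRNA-2 alone it rose (limma adjusted p = 0.0201). Its second probe set gave 0.76, with both LSD1 siRNA arrays above both controls in each. ANXA2R, a proposed receptor for annexin A2, read -0.23 ± 0.11. The 2 probe sets whose annotation names both ANXA8 and ANXA8L1 were not used.

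S100 proteins, small EF-hand calcium sensors of which several bind annexin N-termini, had 19 measured genes. In the fit of all 4 arrays 0 passed, against 0.00506% of all genes; both LSD1 siRNA arrays lay below both controls for 8 and above them for 3, against 25.4% and 23.6%. With siRNA-2 alone 7 fell and 1 rose, against 10.1% lower and 13.2% higher over all genes; with siRNA-1 alone 0 passed, as for all genes. The median difference was -0.13 (-0.06 with siRNA-1, -0.28 with siRNA-2), against -0.004 over all genes. S100A11, the partner of annexin A1, read 0.19 and 0.25 on the controls, -0.19 with siRNA-1 and -0.28 with siRNA-2 (-0.46 ± 0.10). S100A10, the partner of annexin A2, read -0.03 and 0.03, then -0.18 and 0.24, so its groups overlapped (0.03 ± 0.18). A second S100A10 probe set, of class 4 to 8, read 0.26 with a range of 0.40 between the controls.

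The S100 genes with the smallest p were S100A3 (-1.28 ± 0.26), S100A4 (-0.83 ± 0.17), a gene known for its links to cell motility, and S100Z (0.44 ± 0.10), which was read by a dim probe set. None passed in the fit of all 4 arrays (limma adjusted p from 0.219 to 0.241). Of genes picked after their values were seen, S100A2 read 0.43 and 0.83 on the controls, -0.43 for siRNA-1 and -1.56 for siRNA-2, the order of arrays seen for ANXA1. S100A13, S100A16 and S100A1, picked likewise, also fell with siRNA-2 (-0.72, -0.85 and -0.63), though S100A1 was at 0.29 with siRNA-1. S100A6, another annexin partner and the last gene so picked, lay within 0.06 of 0 on each array.

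**Figure D4:**
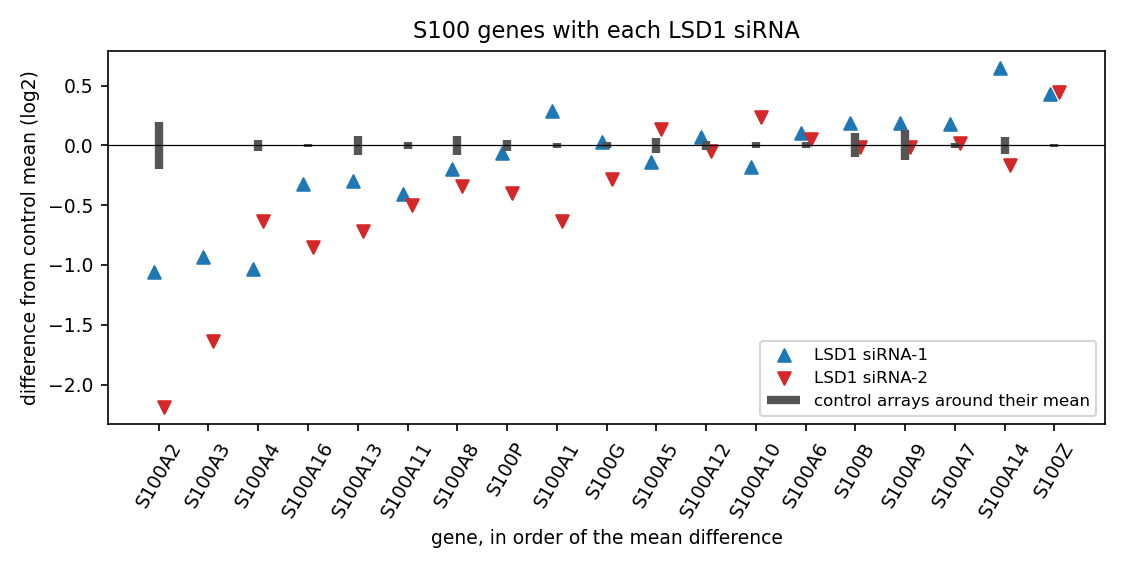
Difference from the control mean, in log2 units, for 19 S100 genes with LSD1 siRNA-1 (upward triangles) and siRNA-2 (downward triangles), ordered by the mean of both; grey bars show the control arrays around their mean. S100A2 and S100A3 lie lowest with siRNA-2, at -2.19 and -1.64, while S100A6 lies within 0.10 of the control mean with each siRNA.

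Further genes around annexin function were read from lists of 6 kinds. None of their genes passed in the fit of all 4 arrays; of 98 measured genes in these lists and the S100 list, 19 had an unadjusted p under 0.05, against 14.6% of all genes. The counts below stand beside the same shares of all genes as for the S100 list: 25.4% lower and 23.6% higher than both controls on both LSD1 siRNA arrays, and, with siRNA-2 alone, 10.1% lower and 13.2% higher. Of 8 genes of plasmin generation at the cell surface, 4 lay lower and 3 higher than both controls on both LSD1 siRNA arrays (median difference -0.17); with siRNA-2 alone 4 fell and 1 rose. The protease inhibitor gene SERPINE2 (-1.45 ± 0.21) and the urokinase gene PLAU (-0.65 ± 0.20) were lower and the antiplasmin gene SERPINF2 (1.61 ± 0.47) higher. A second, dim SERPINE2 probe set read 0.18.

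Of 14 genes for formyl peptide receptors and eicosanoid synthesis, through which annexin A1 acts, 0 passed with siRNA-2 alone, and the median difference was -0.07. LTA4H, a leukotriene enzyme, read 0.31 ± 0.13, FPR2, the formyl peptide receptor bound by annexin A1, read by a dim probe set, -0.18 ± 0.10, and the prostaglandin synthase gene PTGES -0.27 ± 0.16. Of 21 membrane repair genes 2 fell and 1 rose with siRNA-2 alone, no larger a share than the 10.1% and 13.2% of all genes, with a median difference of -0.04. The calpain gene CAPN2, a calcium-activated protease, read 0.37 and 0.48 on the controls, -0.44 for siRNA-1 and -0.37 for siRNA-2 (-0.83 ± 0.11), and its second probe set read -0.23. PDCD6 (-0.34 ± 0.10) and the caveolar coat gene CAVIN1 (-0.49 ± 0.16) were lower as well.

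Copines, which like annexins bind membranes in a calcium-dependent way, had a median of -0.07 over 9 genes, with 1 rise and 0 falls with siRNA-2 alone (13.2% and 10.1% of all genes). CPNE2 (0.69 ± 0.13) was the gene with the smallest p, followed by the dim CPNE5 (-0.32 ± 0.25) and CPNE4 (-0.12 ± 0.12). Over 14 scramblase and flippase genes, which set the phosphatidylserine that annexin A5 binds, the median was 0.07, and 2 rose and 0 fell with siRNA-2 alone, beside the same 13.2% and 10.1%. PLSCR4 read 1.22 ± 0.46, the calcium-gated scramblase gene ANO6 0.40 ± 0.10 and ATP11A 0.17 ± 0.10. Glucocorticoids induce ANXA1 in many cells, and 13 genes of that response had a median of -0.10, with 3 rises and 4 falls for siRNA-2 alone, beside 13.2% and 10.1% of all genes. ZFP36 (-0.91 ± 0.15), HSD11B2 (0.65 ± 0.13) and NFKBIA (0.21 ± 0.11) led this list by p, without a common direction.

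By distance over the differences with each siRNA, the genes nearest to ANXA1 were IL11 (0.21 log2 units away), POLR3G (0.23), DLX2 (0.31), VGF (0.38) and MMP3 (0.40), over 19775 genes and 4 arrays. The cytokine gene IL11 read 0.63 and 0.63 on the controls, -0.63 with siRNA-1 and -2.21 with siRNA-2. MMP3, a matrix metalloproteinase gene, read 0.39 and 0.68, then -0.39 and -2.48. All 5 were chosen for this likeness, so their values are a description.

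Cell identity was read from marker lists, of which only differences and level classes remain. Of 17 hepatocyte markers 16 lay in the class of 8 or above, and 15 stood above both controls on each LSD1 siRNA array and 0 below, against 23.6% and 25.4% of all genes (median difference 0.37). With siRNA-2 alone 7 of the 17 rose, against 13.2% of all genes. Markers of fibroblasts, leukocytes and endothelium had median differences of 0.00 (11 genes, 4 of them dim), -0.03 (9 genes, 3 dim) and 0.07 (8 genes, 4 dim). COL1A1 (1.88 ± 0.54) and CD14 (1.31 ± 0.30), both at 8 or above, were the largest exceptions. The higher hepatocyte marker values lie on the same arrays as the lower ANXA1 values, and their part in that difference was not tested.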

How the data were processed

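Expression was measured on 4 Affymetrix arrays of HepG2 cells. The deposited values are log2 values that the authors made with RMA (version not given in the sources used here), per the submitters' processing notes. The log base was taken as 2, and whether RMA ran on all arrays at once is not known here. The values show a further centring by the authors, a median of 0 per probe set. No scanner files were used, so background correction could not be varied. An array gives no counts or depth.

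Gene names came from the platform annotation (41097 with 1 gene, 1801 with several, 11777 unnamed here), with symbols updated by RefSeq identifier, and 62 control probe sets were left out. The level class was read from the single-precision step, and 14.4% of simulated probe sets below 8 fell into a brighter class. Each of the 19775 genes took the probe set of the brightest class, then without a letter suffix, then by identifier, in place of a highest mean, which centring removes.

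Groups and replicate numbers came from the sample titles. Comparisons used limma 3.58.1 under R 4.3.3 (empirical Bayes, two-sided, Benjamini-Hochberg over all genes, threshold 0.05), 2 arrays against 2 without a block, or in 3 groups for single siRNAs. Prior degrees of freedom were 2.34 and 2.03. The fit was tested on simulated data. An exact permutation test of 2 against 2 cannot go below 0.33.

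Members and lists were chosen with earlier results of these data known. Named genes were all members, other annexins, the 3 genes of each list with the smallest p, S100A10, S100A11, KDM1A and the 5 genes nearest to ANXA1. S100A1, S100A2, S100A6, S100A13 and S100A16 were named after their values were seen. Alternatives were the mean of probe sets, no _x_at or _s_at probe sets, no dim genes, all probe sets and robust moderation. A replicate block, leaving out each array and a second quantile normalization, run on the centred values, were the others. Start regions came from the RefSeq table of GRCh38.p14; ANXA13 was not among the windows used.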

Additional observations from a re-analysis of the deposited data

Results flagged for a closer look

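The limma fit of siRNA-2 minus siRNA-1 over all genes set 1 array against 1, took each to vary like the controls and called 6.83% of all genes. It picked out 11 of the genes named here. For 5 of them, chosen because they lie near ANXA1 in these same differences, the choice largely fixed the outcome, and ANXA1 belongs to a family chosen on these arrays, so the count supports nothing. ANXA1 gave a difference of -1.71 (limma adjusted p = 0.0468), which was -0.61 after a second quantile normalization. Its nearest genes gave -2.10 (DLX2), -1.57 (IL11), -2.08 (MMP3), -2.04 (POLR3G) and -1.19 (VGF). Of the S100 genes, S100A1 gave -0.92 and S100A3 -0.70. Higher with siRNA-2 were COL1A1 (1.56), SERPINF2 (1.35) and the scramblase gene PLSCR4 (1.33).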

How the results depend on the processing

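Under 10 alternatives ANXA1 stayed lower, from -3.04 to -1.20, and no sign turned for ANXA2, ANXA3, ANXA5 or ANXA11, nor for ANXA13 under the 8 that kept its probe set; signs turned for ANXA4 (2 settings), ANXA6 (3), ANXA7 (1) and ANXA10 (1). The count of members lower on both LSD1 siRNA arrays (5) was 11 of 19 with all probe sets. Over all genes the share was 25.4%, and over all probe sets 25.3%, and nothing is read from these counts. Leaving out an array changes what is counted, so those counts are not given. Genes past the threshold on all 4 arrays numbered 1, and 0 with the mean of probe sets, without dim genes, with all probe sets, with robust moderation and with the replicate block. Same-numbered arrays of the groups did not deviate together (r = 0.04 over genes) and the numbers of the knockdown arrays name different siRNAs, so the replicate block rests on a shared number alone. A block leaves the differences of means as they are by construction. Leaving out 1 array gave 0 to 4612 genes, the highest without the siRNA-1 array, and 0 to 26 list genes in place of 0. Quantile-normalizing the centred values again, which forces equal spread on all arrays, gave 422 genes and 5 list genes on all 4 arrays. ANXA1 was among the 422 (-2.32, limma adjusted p = 0.0263), which is no support, since the family was chosen on this contrast. The same setting gave 0 genes for siRNA-2 alone and 0 between the siRNAs, where the ANXA1 difference was -0.61 in place of -1.71. For siRNA-1 alone the count was 0, but 112 for probe-set means and 282 once dim genes were dropped. With siRNA-2 alone 4612 genes passed, and 7460 probe sets with all fitted. Between the siRNAs 1351 genes passed, 2108 for probe-set means, 607 without _x_at and _s_at probe sets, 3052 without dim genes and 0 with all probe sets. The causes of these moves were not tested.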
